A study of Mus musculus with 20 samples.

Results

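A set of 41 mouse genes of the cell cycle and of DNA replication is described here across oxygen-glucose deprivation (OGD) of cortical cultures. The genes were chosen by name for their roles, with earlier results of these data known. Of these, 10 act in origin licensing and firing, 6 in DNA synthesis, 8 in G1 and S phase control, 9 in G2 and M phase control and 8 at the spindle and kinetochore. Of the 41 genes, 38 had at least 1 named probe, with 66 probes in all, out of 15785 named genes on the array. A probe was tested only where 3 or more of the 20 arrays detected it (p under 0.01). This left 30 of the 41 genes (46 probes), out of 7719 named genes. Each gene is represented by the probe with the highest mean signal, and its other tested probes are given where they differ in call.

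Replication origins are licensed in G1 phase, when Cdc6 and Cdt1 load the minichromosome maintenance (MCM) helicase onto DNA, and geminin (Gmnn) keeps Cdt1 from acting again later in the cycle. D cyclins with Cdk4 release E2F transcription factors, which drive the genes of S phase, whereas the kinases Cdk1, Plk1 and the Aurora kinases act in mitosis, where the spindle checkpoint holds back Cdc20 until chromosomes are attached. Cortical neurons are postmitotic, and cycling cells in cultures of fetal cortex are usually progenitors and glia, although cell cycle genes such as Ccnd1 have also been described in injured neurons.

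Primary cortical neurons were prepared from fetal cortices of Swiss albino mice at gestational day 15 or 16 and studied on day 7 of culture. The treated cultures were kept under OGD, given in the labels as hypoxia with an oxygen partial pressure below 50 mm Hg, for 10 min, 5 h, 8 h, 15 h or 24 h, and the controls received no agent. Total RNA was measured on 20 single-colour Illumina bead arrays, 3 for each time and 5 for the controls. The labels do not name the source of the replicates, and every p-value below therefore reflects the spread of these arrays alone, part of which can be technical.

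The median signal was 53.1 to 65.4 per array and 37% to 40.9% of the probes were detected; precision is limited by how many arrays there are. The arrays lay on 3 slides: slide 1 held control replicate 1 and the 10 min arrays, slide 2 control replicates 4 and 5 beside those of 5 h and 8 h, and slide 3 control replicates 2 and 3 beside those of 15 h and 24 h. Control replicate 2 stood apart on the cell cycle genes. It read lower than all other 4 controls for 21 of the 30 tested genes (70%) and higher than all for 1, whereas over all named genes it read lowest of the controls for 27.5% and highest for 31%. For the 30 genes, results that rest on this array are therefore given with and without it. Calls of the further lists and of the cell type markers are given with it only. Of 15 neuron markers 11 were tested, among them Stmn2, Gap43 and Dcx, and Snap25, Nefl and Gad2 were not detected. Astrocyte, oligodendrocyte lineage and progenitor markers were measured as well (7 of 10, 4 of 8 and 8 of 10).

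Of the 5 tested genes of G2/M and the 5 of the spindle, 3 and 3 fell after 10 min of OGD, 4 and 4 after 15 h, and 2 and 2 after 24 h, where 9.65%, 20.5% and 14.9% of all named genes fell. Control replicate 2 read as low as the treated arrays for these genes, and in a fit with the slide as a block, which sets 15 h and 24 h against control replicates 2 and 3 alone, 0 of the 10 passed at those times. At 5 h and 8 h the median differences of the G2/M and spindle genes were 0.14 to 0.18 on the log2 scale. With all 5 controls, genes of replication did not move as a block: Mcm5, Rrm2 and Tk1 fell at 15 h, and Mcm2 and Mcm6 rose at 24 h. Without control replicate 2, 3 of 7 licensing and 4 of 6 DNA synthesis genes fell at 15 h, and 0 rose. In that fit 2460 of all 10447 tested probes fell at 15 h. G1 and S phase genes went their own ways, with cyclin D1 (Ccnd1) higher at 10 min and 24 h, Cdk4 higher at 15 h, Cdk2 higher at 24 h, and E2f1 higher at 5 h and lower at 15 h and 24 h. In limma's two-sided moderated test (adjusted p under 0.05 by the Benjamini-Hochberg method over all tested probes), 1 of the 30 genes rose and 6 fell at 10 min, where 12% of all named genes rose and 9.65% fell (21.7% in all). At 5 h 1 gene rose and 0 fell, against 1.67% and 1.17% of all named genes (2.84% in all). At 8 h limma called 0 of the 30 genes, 3 at an unadjusted p under 0.05, and 0% of all named genes in either direction. At 15 h 1 gene rose and 12 fell, against 19.8% and 20.5% of all named genes (40.2% in all). At 24 h 4 rose and 5 fell, against 15.5% and 14.9% (30.4% in all). The median difference of the 30 genes was -0.10, 0.16, 0.11, -0.32 and -0.04 on the log2 scale at 10 min, 5 h, 8 h, 15 h and 24 h, and that of all named genes was 0.00, 0.00, 0.01, -0.02 and -0.02. At 8 h the differences of single genes ran between -0.34 and 0.43.

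**Figure D1:**
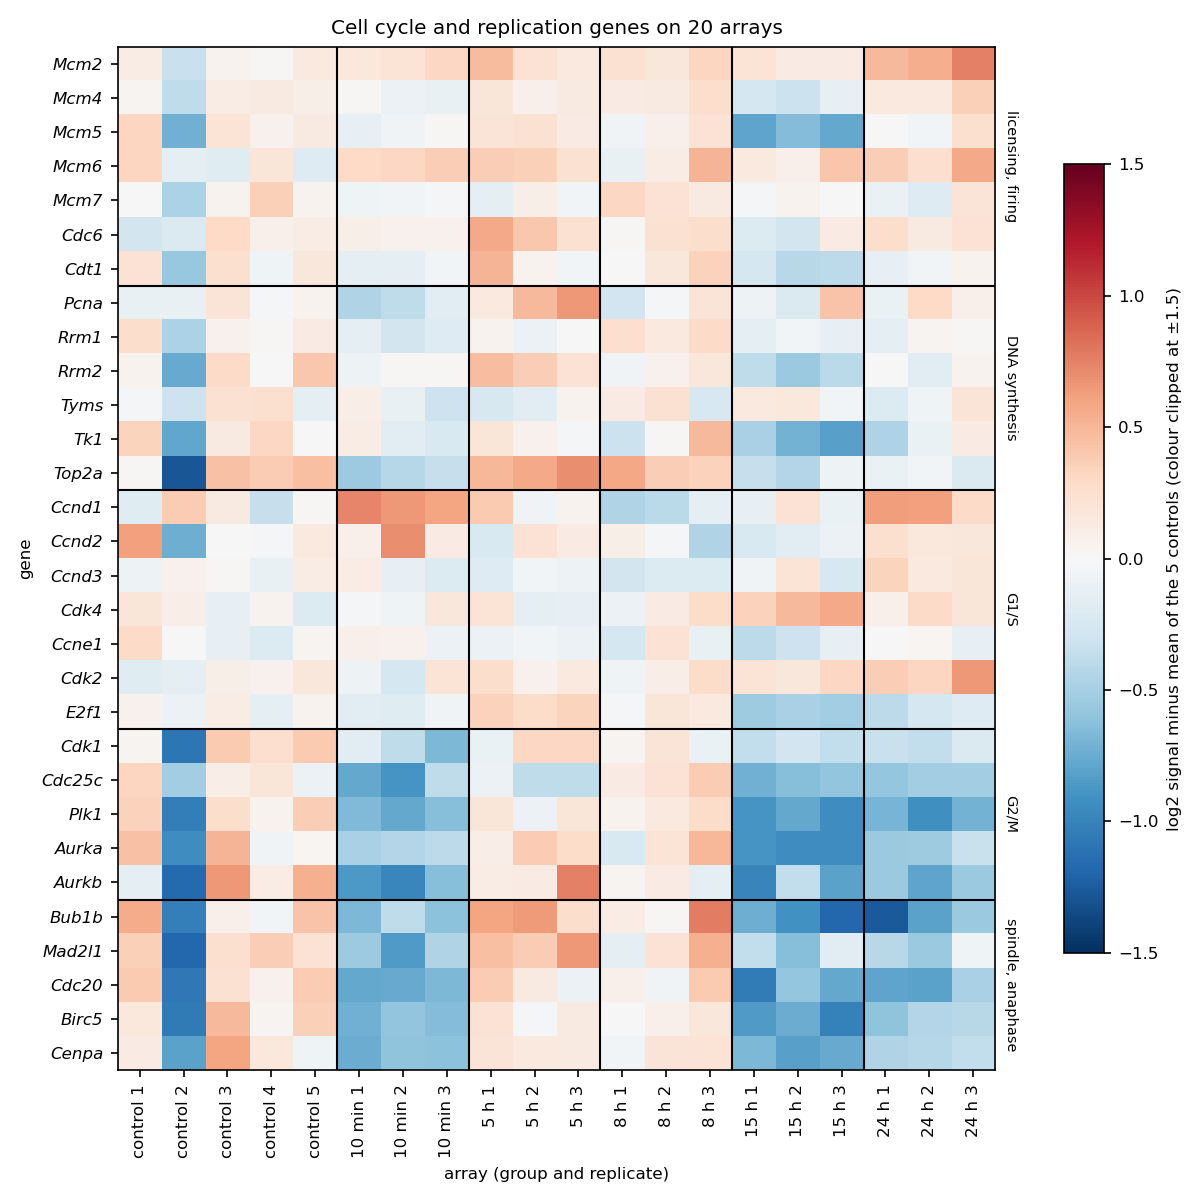
Normalised log2 signal of the 30 tested genes (rows, grouped by role) on the 20 arrays (columns), minus the mean of the 5 controls, on a colour scale clipped at ±1.5. The rows of G2/M and spindle genes are blue on the 10 min, 15 h and 24 h arrays and on control replicate 2, with role means of -0.38 to -0.77 on the treated arrays and -0.95 and -1.03 on that control.

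Among the licensing genes, Mcm5, a subunit of the replicative helicase, was low at 15 h alone. Mcm5 read 8.80, 7.76, 8.68, 8.54 and 8.61 (log2) on control replicates 1 to 5. At 10 min Mcm5 read 8.35, 8.42 and 8.50, at 5 h 8.67, 8.71 and 8.60 and at 8 h 8.43, 8.56 and 8.70. At 15 h Mcm5 read 7.69, 7.83 and 7.71, and at 24 h 8.48, 8.44 and 8.72. The 15 h arrays all lay below every other array except control replicate 2, which read at their level. Mcm5 fell by 0.73 ± 0.16 (log2) at 15 h (SE; 3 and 5 arrays; limma adjusted p = 0.00126), a 1.66-fold difference, and by 0.91 without control replicate 2. In the slide-blocked fit, which compares the 15 h arrays with control replicates 2 and 3 only, the difference was -0.47 (adjusted p = 0.0532). At 24 h, on the same slide, Mcm5 read 8.48, 8.44 and 8.72, against 7.69, 7.83 and 7.71 at 15 h, a rise of 0.80 ± 0.18 (adjusted p = 0.0294, 0.0133 in the slide-blocked fit). This rise was the single member call between those times, where 0.428% of all named genes rose and 0.596% fell (1.02% in all). It was lost without any 1 of the 6 arrays compared (adjusted p = 0.0577 to 0.135).

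Mcm2, another helicase subunit, was highest at 24 h. Mcm2 read 6.77, 6.33, 6.71, 6.68 and 6.81 (log2) on control replicates 1 to 5. At 10 min Mcm2 read 6.82, 6.86 and 6.97, at 5 h 7.14, 6.88 and 6.81 and at 8 h 6.89, 6.83 and 6.98. At 15 h Mcm2 read 6.87, 6.78 and 6.78, and at 24 h 7.15, 7.21 and 7.42. All 3 arrays at 24 h lay above all 5 controls and above every other array, with 5 h replicate 1 just under them. The rise at 24 h was 0.60 ± 0.11 in log2 (SE; 3 and 5 arrays; limma adjusted p = 0.000398), or 1.51-fold, and it passed without any 1 of the 8 arrays (0.52 to 0.65) and in the slide-blocked fit (0.74, adjusted p = 0.00195). Mcm6, also of the helicase, averaged 8.24 ± 0.16 at 24 h and 7.85 ± 0.24 in the controls (SD, n = 3 and 5), and the groups overlapped. Its rise of 0.39 (adjusted p = 0.0367, 0.0286 in the slide-blocked fit) was lost without control replicates 2, 3 or 5 or without 24 h replicates 1 or 3 (adjusted p = 0.0517 to 0.186). A further Mcm6 probe (6510110) rose by 0.60 at 24 h (adjusted p = 2.54e-05) and by 0.26 at 10 min (adjusted p = 0.0202).

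With control replicate 2 kept, the remaining licensing genes did not pass against the controls. That array read lowest of the controls for Mcm4 and Cdt1 (9.06 and 6.42). Without it, 3 of the 7 tested licensing genes, Mcm5 included, fell at 15 h and 0 rose. At 24 h 1 rose, Mcm2, and at 10 min 0 passed. Of all 10447 tested probes, 2460 fell at 15 h and 1997 rose at 24 h in that fit. The following values are with that array. Mcm4 differed by -0.24 at 15 h and 0.21 at 24 h (adjusted p = 0.0748 and 0.13), Cdt1, the licensing factor, by -0.36 at 15 h (adjusted p = 0.0729) and Mcm7 by -0.05 to 0.22 over the 5 times. A second, dimmer Mcm7 probe (5220056), detected on 12 of 20 arrays, rose by 0.37 at 24 h (adjusted p = 0.0475). Cdc6, which loads the helicase, differed by 0.40 at 5 h (adjusted p = 0.0767) and was detected on all 3 arrays at 5 h, on 1 control and on no other array. Cdc45, which activates the helicase, and Gmnn were detected on 0 of 20 arrays, and Mcm3 had no named probe.

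The promoter windows of Mcm5 and Mcm6 are shown as examples of helicase genes that passed the test at different times and whose windows hold E2F letters. Mcm2 also passed, at 24 h, holds no E2F letters and is not shown. Windows run from 250 bases before to 50 after the gene start, from RefSeq on GRCm38.p6, and 25 of the 30 tested genes had one. Letters were searched on both strands for 3 motifs: E2F (TTTCCCGC, TTTGGCGC, TTTGCCGC or TTTCGCGC), the cell cycle homology region or CHR (TTTGAA or TTCGAA), and the CCAAT box (CCAAT). Capitals mark any match; in these windows the capitals of 10 or more letters are E2F matches on both strands that overlap each other, at 153 and 149 bases before the start of Mcm5 and at 110 and 106 before that of Mcm6, where a further E2F match stands at 47, and the runs of 5 letters are CCAAT boxes.
Mcm5, chr8:75109259-75109558, plus strand: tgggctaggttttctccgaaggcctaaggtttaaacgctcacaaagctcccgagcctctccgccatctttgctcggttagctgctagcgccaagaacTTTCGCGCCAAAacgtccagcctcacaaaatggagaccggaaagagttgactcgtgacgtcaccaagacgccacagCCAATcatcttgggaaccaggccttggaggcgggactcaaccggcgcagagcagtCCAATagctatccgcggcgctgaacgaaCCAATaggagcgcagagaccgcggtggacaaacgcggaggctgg
Mcm6, chr1:128359656-128359955, minus strand: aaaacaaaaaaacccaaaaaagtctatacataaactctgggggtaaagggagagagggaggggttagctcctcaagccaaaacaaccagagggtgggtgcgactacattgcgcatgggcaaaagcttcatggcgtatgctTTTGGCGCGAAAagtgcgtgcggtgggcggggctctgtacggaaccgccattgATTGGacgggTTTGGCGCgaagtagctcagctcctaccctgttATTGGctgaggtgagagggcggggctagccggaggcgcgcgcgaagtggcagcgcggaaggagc
E2F letters stood in the windows of 5 of 6 licensing genes (Mcm5, Mcm6, Mcm7, Cdc6 and Cdt1, not Mcm2), in 0 of 6 DNA synthesis genes, and in 2.26% of all 32851 RefSeq windows of this length. A match of letters is a description of the window and not a binding site.

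Of 6 tested genes of DNA synthesis, 2 fell at 15 h, against 20.5% of all named genes, and 0 passed at the other times. Without control replicate 2, 2 fell at 10 min, 4 at 15 h and 1 at 24 h. Of all 10447 tested probes, 1678, 2460 and 2078 fell at these times in that fit. Rrm2, the small subunit of ribonucleotide reductase, averaged 6.46 ± 0.09 at 15 h and 6.90 ± 0.45 in the controls (SD, n = 3 and 5), a fall of 0.44 (adjusted p = 0.0443), and 0.63 without control replicate 2 (adjusted p = 5.76e-05). Tk1, the thymidine kinase that salvages thymidine in S phase, was detected on 0 of 3 arrays at 15 h and on 4 of 5 controls, a signal at least 1.14-fold lower (adjusted p = 0.0172). A second Tk1 probe (540014), detected on 0 of 3 arrays at 15 h and 3 of 5 controls, was at least 1.1-fold lower (adjusted p = 0.0102). The calls of Rrm2 and of the brighter Tk1 probe were lost in the slide-blocked fit (Rrm2 -0.21, adjusted p = 0.458, and Tk1 -0.34, adjusted p = 0.318). Rrm2 lost its call without any 1 array other than control replicate 2 (adjusted p = 0.0648 to 0.14) and Tk1 without 15 h replicates 2 or 3 (adjusted p = 0.0541 and 0.077).

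Top2a, the topoisomerase that untangles replicated chromosomes, was read over a wide range. It averaged 5.96 ± 0.10 at 10 min, against 6.39 ± 0.74 in the controls (SD, n = 3 and 5), and the spread of the controls came from control replicate 2 at 5.11, against 6.41 to 6.85 on the others. The difference of -0.44 at 10 min had an adjusted p of 0.24, and without control replicate 2 it was -0.76 (adjusted p = 5.71e-05). At 5 h Top2a averaged 6.98, a difference of 0.59 (adjusted p = 0.2). Without control replicate 2 Top2a fell by 0.61 at 15 h and 0.44 at 24 h (adjusted p = 0.000257 and 0.00459). Pcna, the sliding clamp of the replication fork, differed by -0.34 at 10 min and 0.43 at 5 h (adjusted p = 0.114 and 0.108), and Rrm1, the large reductase subunit, by -0.20 to 0.23. For Tyms, thymidylate synthase, the 3 tested probes disagreed: the brightest differed by 0.08 at 15 h, another (940450) fell by 0.52 (adjusted p = 0.00802) and the dimmest differed by -0.15.

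E2f1, a transcription factor that drives S phase genes, gave the smallest adjusted p of all 30 genes. E2f1 read 8.20, 8.05, 8.25, 8.00 and 8.19 (log2) on control replicates 1 to 5. At 10 min E2f1 read 7.98, 7.96 and 8.08, at 5 h 8.48, 8.41 and 8.47 and at 8 h 8.12, 8.32 and 8.29. At 15 h E2f1 read 7.6, 7.65 and 7.62, and at 24 h 7.75, 7.87 and 7.94. At 15 h and at 24 h all arrays lay below all 5 controls, and at 5 h all lay above them. It fell by 0.51 ± 0.08 at 15 h (SE; 3 and 5 arrays; limma adjusted p = 7.15e-05), a 1.43-fold difference, and by 0.29 at 24 h (adjusted p = 0.0124). The fall at 15 h passed in the slide-blocked fit (-0.53, adjusted p = 0.00125) and without any 1 array. The fall at 24 h was -0.30 in the slide-blocked fit (adjusted p = 0.061) and was lost without 24 h replicate 1 (-0.23, adjusted p = 0.0784). The rise of 0.31 at 5 h (adjusted p = 0.0456) was lost in the slide-blocked fit (0.35, adjusted p = 0.194) and without control replicates 1, 2 or 4 or any 1 of the 5 h arrays (adjusted p = 0.0513 to 0.129). In the slide-blocked fit 0 of all 10447 tested probes passed at 5 h.

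Ccnd1, the cyclin that starts G1 progression with Cdk4, was high at both ends of the series. Ccnd1 read 8.19, 8.75, 8.50, 8.02 and 8.39 (log2) on control replicates 1 to 5. At 10 min Ccnd1 read 9.10, 9.02 and 8.96, at 5 h 8.76, 8.32 and 8.42 and at 8 h 7.92, 7.96 and 8.22. At 15 h Ccnd1 read 8.25, 8.59 and 8.27, and at 24 h 9.0, 8.99 and 8.66. The 10 min arrays all lay above all 5 controls, of which control replicate 2 was the highest, and at 24 h 1 array lay within the range of the controls. Ccnd1 rose by 0.66 ± 0.15 at 10 min (SE; 3 and 5 arrays; limma adjusted p = 0.00486), or 1.58-fold, and the rise passed in the slide-blocked fit (0.84, adjusted p = 0.0155) and without any 1 array. At 24 h it rose by 0.51 (adjusted p = 0.0122), which was lost in the slide-blocked fit (0.26, adjusted p = 0.32) and without 24 h replicates 1 or 2 (adjusted p = 0.0614 and 0.0616). The other Ccnd1 probes tested rose at 10 min by 0.64 and 0.63 (adjusted p = 0.000867 and 0.0356), and at 24 h differed by 0.45 and 0.43 (adjusted p = 0.00463 and 0.123).

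Cdk4, the partner kinase of D cyclins, was highest at 15 h. Cdk4 read 10.06, 9.98, 9.75, 9.93 and 9.67 (log2) on control replicates 1 to 5. At 10 min Cdk4 read 9.86, 9.81 and 10.05, at 5 h 10.08, 9.74 and 9.76 and at 8 h 9.79, 10.00 and 10.15. At 15 h Cdk4 read 10.22, 10.36 and 10.45, and at 24 h 9.95, 10.16 and 10.06. All 15 h arrays lay above all 5 controls, and the other times overlapped with the controls. The rise at 15 h was 0.46 ± 0.11 (SE; 3 and 5 arrays; limma adjusted p = 0.00289), or 1.38-fold, and passed in the slide-blocked fit (0.48, adjusted p = 0.0159), whereas the other Cdk4 probes tested differed by 0.32 and 0.28 (adjusted p = 0.0859 and 0.0909).

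Cdk2, the kinase of cyclin E at S phase entry, was highest at 24 h. Cdk2 read 8.35, 8.39, 8.62, 8.59 and 8.70 (log2) on control replicates 1 to 5. At 10 min Cdk2 read 8.45, 8.27 and 8.74, at 5 h 8.79, 8.60 and 8.68 and at 8 h 8.47, 8.63 and 8.81. At 15 h Cdk2 read 8.73, 8.70 and 8.84, and at 24 h 8.90, 8.85 and 9.18. All 24 h arrays lay above all 5 controls. Cdk2 rose by 0.45 ± 0.12 at 24 h (SE; 3 and 5 arrays; limma adjusted p = 0.0071), or 1.36-fold, with 0.47 (adjusted p = 0.0332) in the slide-blocked fit, and the call was lost without 24 h replicate 3 (0.34, adjusted p = 0.0715). Another Cdk2 probe (130484) rose at 15 h by 0.40 and at 24 h by 0.35 (adjusted p = 0.0167 and 0.0431). Cyclin E1 (Ccne1) differed by -0.28 at 15 h (adjusted p = 0.0608), Ccnd2 by -0.16 to 0.30 and Ccnd3, detected on 3 of 20 arrays, by -0.23 to 0.22 over the 5 times, with 0 calls in limma against the controls. Ccne2 was detected on 0 of 20 arrays.

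**Figure D2:**
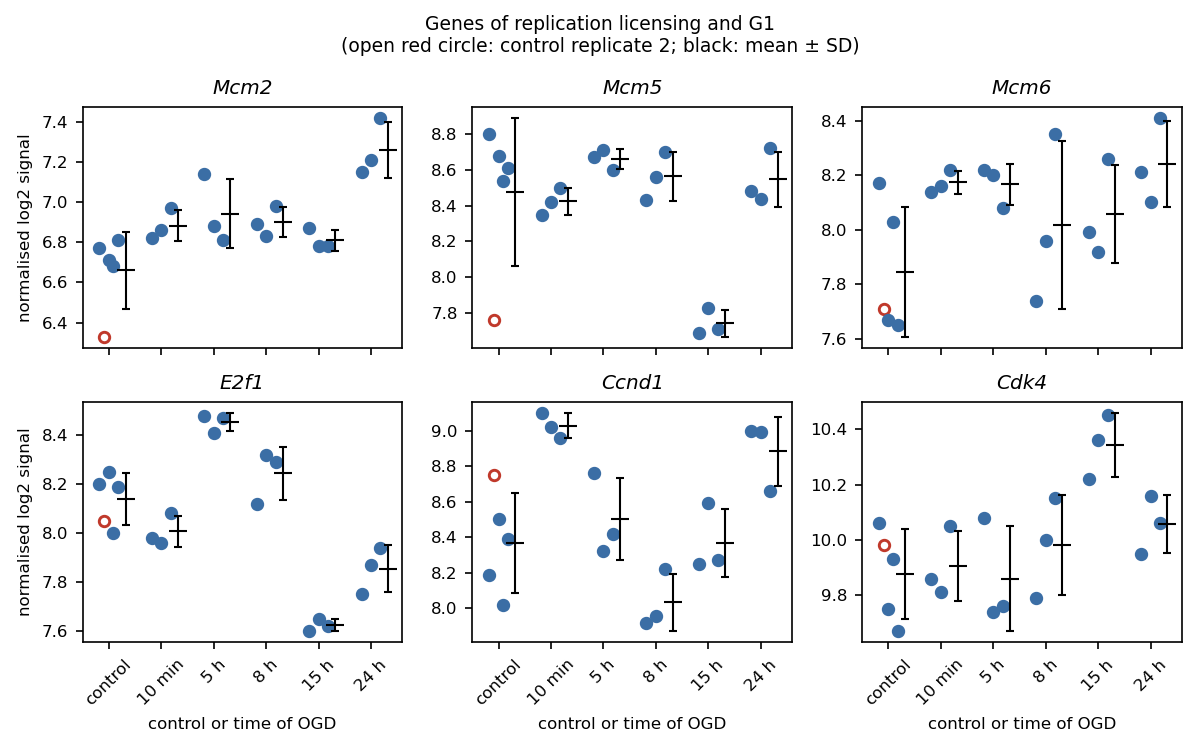
Normalised log2 signal (vertical axis, a scale for each gene) of 6 genes of licensing and G1 phase, by control or time of OGD. Points are arrays, the open red circle is control replicate 2, and black marks are the mean ± SD; E2f1 and Mcm5 have their lowest times at 15 h (means 7.63 and 7.75), and Mcm2 its highest at 24 h (7.26).

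Among the genes of G2 and M phase, Plk1, the polo-like kinase of mitotic entry and spindle assembly, fell at 10 min, 15 h and 24 h. Plk1 read 8.30, 6.92, 8.22, 8.01 and 8.32 (log2) on control replicates 1 to 5. At 10 min Plk1 read 7.29, 7.19 and 7.31, at 5 h 8.13, 7.87 and 8.13 and at 8 h 8.01, 8.10 and 8.23. At 15 h Plk1 read 7.07, 7.19 and 7.02, and at 24 h 7.26, 7.03 and 7.25. The 9 arrays at 10 min, 15 h and 24 h all lay below controls 1, 3, 4 and 5 and above control replicate 2, and the 5 h and 8 h arrays lay at the level of the other 4 controls. Plk1 fell by 0.69 ± 0.21 at 10 min, 0.86 ± 0.21 at 15 h and 0.77 ± 0.21 at 24 h (SE; 3 and 5 arrays; limma adjusted p = 0.0281, 0.00354 and 0.0103), or 1.62-, 1.81- and 1.71-fold. Without control replicate 2 it fell by 0.95, 1.12 and 1.03 (adjusted p = 1.03e-06, 5.53e-08 and 2.01e-07).

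Aurka, the Aurora kinase of spindle poles, was lowest at 15 h. Aurka read 7.21, 5.85, 7.29, 6.72 and 6.81 (log2) on control replicates 1 to 5. At 10 min Aurka read 6.29, 6.34 and 6.38, at 5 h 6.88, 7.16 and 7.05 and at 8 h 6.55, 6.98 and 7.27. At 15 h Aurka read 5.89, 5.84 and 5.84, and at 24 h 6.22, 6.24 and 6.44. The 15 h arrays read at the level of control replicate 2 and below every other array, and the 10 min and 24 h arrays lay between control replicate 2 and the other controls. Aurka fell by 0.92 ± 0.22 at 15 h (SE; 3 and 5 arrays; limma adjusted p = 0.00274), or 1.89-fold, and differed by -0.44 at 10 min and -0.47 at 24 h (adjusted p = 0.167 and 0.115). Without control replicate 2 it fell by 0.67, 1.15 and 0.70 at 10 min, 15 h and 24 h (adjusted p = 0.00185, 4.87e-06 and 0.000907). Aurkb, the Aurora kinase of the centromere complex, averaged 5.32 ± 0.17 at 10 min and 5.41 ± 0.32 at 15 h, against 6.13 ± 0.72 in the controls (SD, n = 3, 3 and 5), falls of 0.82 and 0.72 (adjusted p = 0.0437 and 0.0474) over a level detected on 1 of 3 arrays at each of these times. Aurkb differed by -0.64 at 24 h (adjusted p = 0.0924). Leaving out control replicate 2, the Aurkb differences were -1.11 at 10 min, -1.01 at 15 h and -0.93 at 24 h (adjusted p = 0.00019, 0.000244 and 0.000677).

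Cdc25c, the phosphatase that activates Cdk1, was near the detection limit. Cdc25c read 5.90, 5.05, 5.68, 5.76 and 5.49 (log2) on control replicates 1 to 5. At 10 min Cdc25c read 4.81, 4.69 and 5.20, at 5 h 5.49, 5.20 and 5.20 and at 8 h 5.70, 5.79 and 5.96. At 15 h Cdc25c read 4.86, 4.94 and 4.99, and at 24 h 5.00, 5.05 and 5.06. It was detected on 4 of 5 controls and on all 8 h arrays, and on 0 arrays at 10 min, 5 h, 15 h and 24 h, so that at these times only a bound on the fold holds. Cdc25c was at least 1.13-fold lower at 10 min, 1.18-fold at 15 h and 1.1-fold at 24 h (adjusted p = 0.00493, 0.0021 and 0.0109), and these calls held without any 1 array (adjusted p = 5.16e-05, 3.56e-05 and 0.000209 without control replicate 2). A second probe (4760161), also detected on 0 arrays at 10 min, 15 h and 24 h, was at least 1.03-fold lower at 10 min and 1.07-fold lower at 15 h (adjusted p = 0.0102 and 0.00171), and at 24 h the bound was 1.0 (adjusted p = 0.00907). Cdk1, the mitotic cyclin-dependent kinase, differed by -0.41, -0.34 and -0.30 at 10 min, 15 h and 24 h (adjusted p = 0.221, 0.261 and 0.354), and without control replicate 2 by -0.68, -0.62 and -0.57 (adjusted p = 0.000429, 0.00062 and 0.00143). Ccna2 and Ccnb2 were detected on 0 of 20 arrays, and Ccnb1 and Mki67 had no named probe, so the mitotic cyclins are not among the measured genes.

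At the spindle, Cenpa, the histone variant that marks centromeres, fell at 10 min and 15 h. Cenpa read 9.71, 8.79, 10.18, 9.75 and 9.52 (log2) on control replicates 1 to 5. At 10 min Cenpa read 8.85, 8.99 and 8.98, at 5 h 9.78, 9.74 and 9.72 and at 8 h 9.55, 9.78 and 9.79. At 15 h Cenpa read 8.92, 8.78 and 8.83, and at 24 h 9.14, 9.16 and 9.22. The 10 min, 15 h and 24 h arrays all lay below controls 1, 3, 4 and 5, and control replicate 2 read among them. Cenpa fell by 0.65 ± 0.18 at 10 min and 0.74 ± 0.18 at 15 h (SE; 3 and 5 arrays; limma adjusted p = 0.0188 and 0.0034), or 1.57- and 1.67-fold, and by 0.85 and 0.94 without control replicate 2 (adjusted p = 1.89e-05 and 2.6e-06). At 24 h it differed by -0.42 (adjusted p = 0.0949), and by -0.62 without control replicate 2 (adjusted p = 0.000299).

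Birc5, or survivin, a subunit of the centromere complex of Aurkb, fell at the same times. Birc5 read 7.75, 6.53, 8.08, 7.63 and 7.95 (log2) on control replicates 1 to 5. At 10 min Birc5 read 6.87, 7.0 and 6.94, at 5 h 7.81, 7.56 and 7.72 and at 8 h 7.59, 7.66 and 7.76. At 15 h Birc5 read 6.74, 6.84 and 6.58, and at 24 h 6.98, 7.15 and 7.17. All arrays at 10 min, 15 h and 24 h lay above control replicate 2 and below the other 4 controls, and the 5 h and 8 h arrays overlapped with those 4. Birc5 fell by 0.65 ± 0.22 at 10 min and 0.87 ± 0.22 at 15 h (SE; 3 and 5 arrays; limma adjusted p = 0.0422 and 0.00403). With control replicate 2 left out, Birc5 fell by 0.92, 1.14 and 0.75 at 10 min, 15 h and 24 h (adjusted p = 3.21e-06, 1.07e-07 and 1.67e-05). The other Birc5 probes fell at 15 h, by 0.90 and 0.65 (adjusted p = 0.0141 and 0.0393), and at 10 min differed by -0.73 and -0.55 (adjusted p = 0.0676 and 0.11).

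Bub1b, a kinase of the spindle checkpoint, had its lowest values late. Bub1b read 6.35, 4.76, 5.86, 5.75 and 6.22 (log2) on control replicates 1 to 5. At 10 min Bub1b read 5.11, 5.41 and 5.17, at 5 h 6.38, 6.43 and 6.05 and at 8 h 5.90, 5.81 and 6.56. At 15 h Bub1b read 5.05, 4.88 and 4.61, and at 24 h 4.53, 4.99 and 5.23. It was detected on 0 arrays at 10 min, 15 h and 24 h and on 4 of 5 controls, and was at least 1.36-fold lower at 15 h and 1.27-fold lower at 24 h (limma adjusted p = 0.00819 and 0.018). These calls were lost without 15 h replicate 3 (adjusted p = 0.0502) and without 24 h replicate 1 (adjusted p = 0.11). Without control replicate 2 Bub1b passed at 10 min, 15 h and 24 h (adjusted p = 0.00326, 5.62e-05 and 0.000138). Cdc20, the activator of the anaphase-promoting complex, averaged 6.96 ± 0.05 at 10 min, 6.89 ± 0.23 at 15 h and 6.99 ± 0.18 at 24 h, against 7.69 ± 0.61 in the controls (SD, n = 3, 3, 3 and 5). It fell by 0.73, 0.80 and 0.69 (adjusted p = 0.0345, 0.0112 and 0.0325), and by 1.00, 1.06 and 0.96 without control replicate 2 (adjusted p = 2e-05, 4.29e-06 and 1.79e-05). The other Cdc20 probes, detected on 10 and 7 of 20 arrays, passed in the same direction at 10 min (adjusted p = 0.0339 and 0.0155) and at 15 h (adjusted p = 0.0481 and 0.011). Both were detected on 0 arrays at 10 min, so they give no measured fold there. Mad2l1, the checkpoint protein that binds Cdc20, differed by -0.61 at 10 min (adjusted p = 0.0989), with 4.94 on control replicate 2 and 6.33 to 6.48 on the others, and by -0.91 without that array (adjusted p = 0.00016). Bub1, Ube2c and Kif11 were detected on 0 of 20 arrays.

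**Figure D3:**
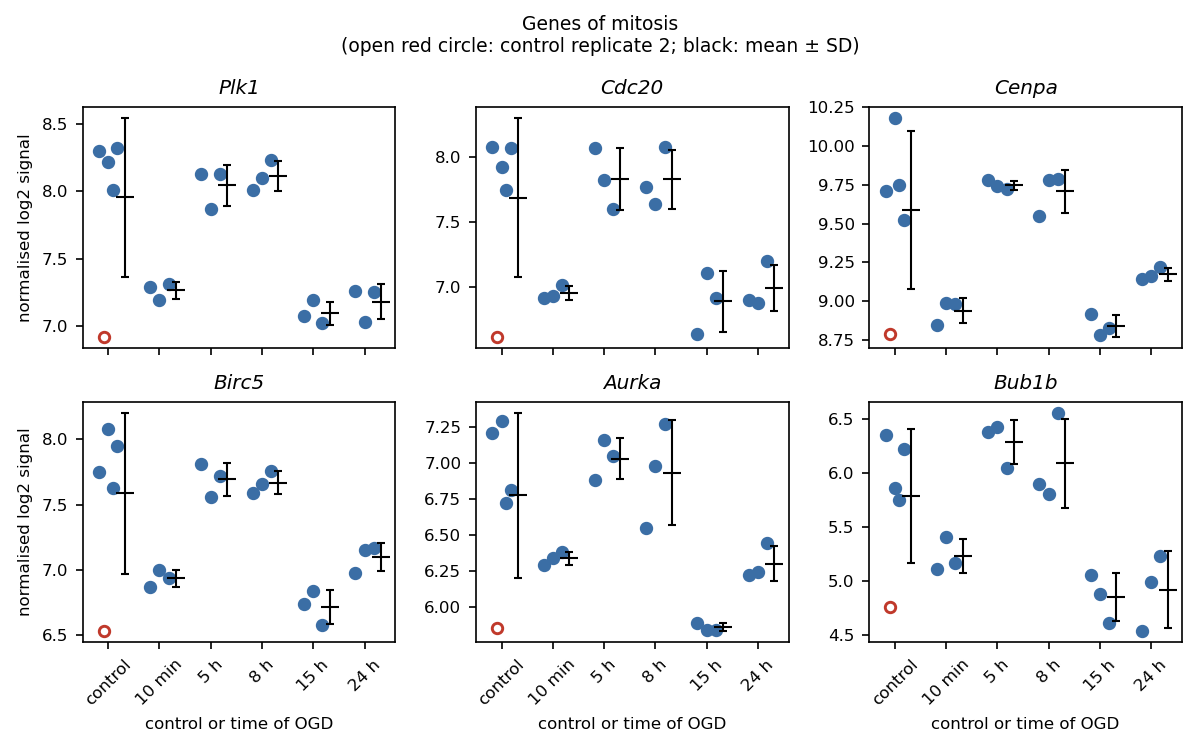
Normalised log2 signal (vertical axis, a scale for each gene) of 6 genes of mitosis, by control or time of OGD. Points are arrays, the open red circle is control replicate 2, and black marks are the mean ± SD; for Plk1 the 10 min, 15 h and 24 h arrays sit at 7.02 to 7.31 between control replicate 2 at 6.92 and the other controls at 8.01 to 8.32.

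Promoter windows of Plk1, Cdc20 and Cenpa are shown as examples of mitotic genes that fell at 10 min and 15 h and whose windows hold CHR letters. Birc5 also fell at both times, holds no such letters and is not shown. Capitals mark matches to the CHR letters, the run of 6, at 30 bases after the start of Plk1, 18 before that of Cdc20 and 16 after that of Cenpa, and the CCAAT boxes, the runs of 5, read as ATTGG on the other strand.
Plk1, chr7:122159185-122159484, plus strand: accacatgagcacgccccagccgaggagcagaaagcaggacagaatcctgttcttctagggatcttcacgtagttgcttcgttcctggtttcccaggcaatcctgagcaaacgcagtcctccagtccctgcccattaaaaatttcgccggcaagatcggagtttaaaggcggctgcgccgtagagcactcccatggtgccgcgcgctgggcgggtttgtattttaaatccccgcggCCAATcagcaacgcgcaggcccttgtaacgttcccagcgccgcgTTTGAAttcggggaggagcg
Cdc20, chr4:118437294-118437593, minus strand: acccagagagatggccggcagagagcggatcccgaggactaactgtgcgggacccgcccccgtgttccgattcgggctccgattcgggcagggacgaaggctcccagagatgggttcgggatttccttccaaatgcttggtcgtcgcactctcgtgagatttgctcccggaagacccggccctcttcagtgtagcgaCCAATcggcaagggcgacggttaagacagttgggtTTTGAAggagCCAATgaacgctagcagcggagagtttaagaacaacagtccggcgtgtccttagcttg
Cenpa, chr5:30666636-30666935, plus strand: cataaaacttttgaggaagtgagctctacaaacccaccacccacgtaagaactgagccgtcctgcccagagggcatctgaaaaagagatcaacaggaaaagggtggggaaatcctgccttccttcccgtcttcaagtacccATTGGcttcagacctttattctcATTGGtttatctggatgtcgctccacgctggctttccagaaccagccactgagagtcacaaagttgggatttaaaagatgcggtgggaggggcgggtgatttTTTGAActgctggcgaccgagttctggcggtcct
CHR letters stood in the windows of 6 of the 8 G2/M and spindle genes that had one (Cdk1, Plk1, Aurka, Bub1b, Cdc20 and Cenpa), against 3 of 17 tested genes of the other roles and 19.2% of all RefSeq windows. CCAAT stood in 6 of these 8, in 10 of the other 17 and in 37.4% of all windows. Birc5 and Mad2l1 held neither, and Birc5 was among the genes that fell.

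By role, 3 of 5 G2/M genes and 3 of 5 spindle genes fell at 10 min, 4 and 4 at 15 h and 2 and 2 at 24 h, with 0 rises, against 9.65%, 20.5% and 14.9% of all named genes that fell. Their median differences were -0.68 and -0.65, -0.72 and -0.80, and -0.54 and -0.49 on the log2 scale. Fewer cells of a type and less RNA per cell cannot be told apart in these bulk samples. The calls depend on control replicate 2 and on the slides. Without that array, 13 of the 30 genes passed at 10 min (7 with it), 19 at 15 h (13 with it) and 15 at 24 h (9 with it), among them all 5 G2/M and all 5 spindle genes at each of the 3 times. Calls over all 10447 tested probes increased too. At 10 min 1854 probes rose and 1678 fell (1153 and 981 with that array). At 15 h 2284 rose and 2460 fell (1951 and 2078 with it), and at 24 h 1997 and 2078 (1534 and 1506 with it). In the slide-blocked fit, 15 h and 24 h were compared with control replicates 2 and 3 alone, which differed from each other (Plk1 6.92 and 8.22), and 0 of the 10 mitotic genes passed (Plk1 -0.47 and -0.39, adjusted p = 0.142 and 0.297). Of all 10447 tested probes, 1467 fell at 15 h and 644 at 24 h in that fit. In the slide-blocked fit without control replicate 2, an alternative chosen after the data were seen that leaves control replicate 3 as the control of that slide, all 5 G2/M genes and 4 of 5 spindle genes fell at 15 h and at 24 h (Plk1 -1.13 and -1.04). With this alternative 1724 of the 10447 tested probes fell at 15 h and 1229 at 24 h. At 10 min the block compares with control replicate 1 alone and called Cdc25c, Plk1, Cdc20 and Bub1b lower (adjusted p = 0.00851 to 0.0494), of which Bub1b had not passed without the block (-0.55, adjusted p = 0.142). Of all 10447 tested probes, 564 rose and 672 fell at 10 min in the slide-blocked fit. The 10 min calls of Plk1, Aurkb, Cdc20 and Birc5 were lost without any 1 array other than control replicate 2 (adjusted p = 0.0503 to 0.144), and that of Cenpa without any 1 of the 10 min arrays (adjusted p = 0.0525 to 0.0764). At 15 h Aurkb was lost without 6 of the 8 arrays (adjusted p = 0.0527 to 0.182) and Cdc20 without 15 h replicate 1 (adjusted p = 0.0674). At 24 h Cdc20 was lost without any 1 array other than control replicate 2 (adjusted p = 0.0517 to 0.109) and Plk1 without 24 h replicate 2 (adjusted p = 0.0527).

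**Figure D4:**
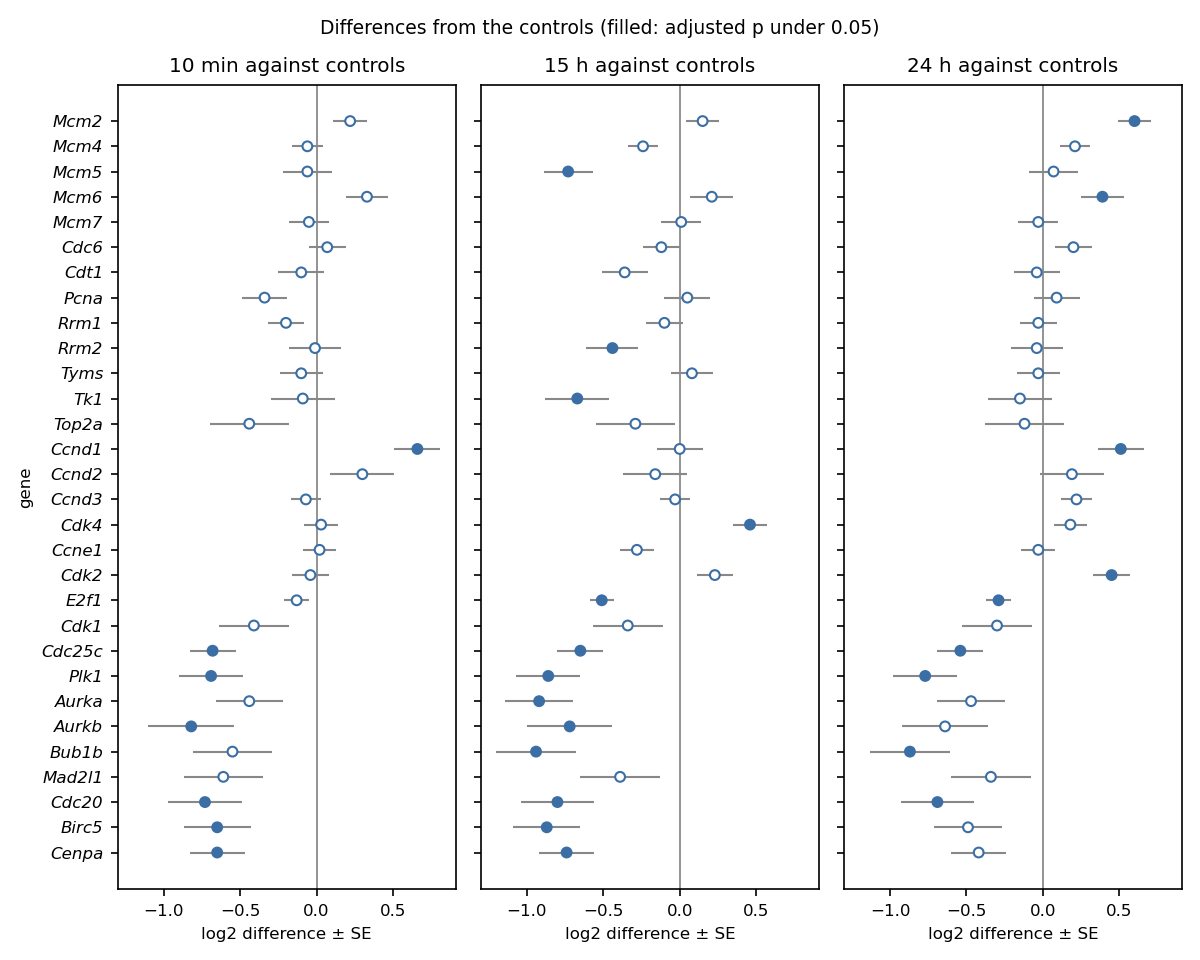
Difference from the 5 controls (horizontal axis, log2 scale, ± SE) of the 30 tested genes at 10 min, 15 h and 24 h. Filled points passed limma's test at an adjusted p under 0.05; the 10 G2/M and spindle genes all lie left of 0 in the 3 panels, and the filled points to the right are Ccnd1, Cdk4, Mcm2, Mcm6 and Cdk2.

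Of the neighbouring times, 8 h against 5 h, 15 h against 8 h and 24 h against 15 h were tested, and 5 h against 10 min was not. At 15 h against 8 h, in limma's test, 1 gene rose (Cdk4, 0.36) and 13 fell, against 16.8% and 17.9% of all named genes (34.7% in all), with a median difference of -0.46. Bub1b was at least 1.68-fold lower, Aurka fell by 1.08, Plk1 by 1.02, Birc5 by 0.95, Cdc20 by 0.94 and Cenpa by 0.86 (adjusted p = 0.00248 to 0.00984). The arrays of these times did not overlap for any of them, and for 2110 of all 7719 named genes the 15 h arrays likewise all lay below the 8 h arrays. Cdc25c and Tk1, detected on 0 arrays at 15 h, were at least 1.39- and 1.19-fold lower (adjusted p = 0.00055 and 0.0234), and E2f1 fell by 0.62 (adjusted p = 6.81e-05). Of the replication genes Mcm5 fell by 0.82, Cdt1 by 0.53, Rrm2 by 0.51 and Mcm4 by 0.41 (adjusted p = 0.0017 to 0.0465). The times lay on different slides, and in the slide-blocked fit E2f1 alone passed (-0.67, adjusted p = 0.0167). Of all 10447 tested probes, 337 rose and 363 fell in that fit (1674 and 1761 without the block). With control replicate 2 also left out, the setting chosen after the data were seen, 12 genes fell and 0 rose, among them 4 of 5 G2/M and 4 of 5 spindle genes. Over all 10447 tested probes 790 fell and 843 rose in that setting. At 8 h against 5 h, 0 genes passed in limma (4 at an unadjusted p under 0.05), where 1.4% of all named genes rose and 1.04% fell (2.44% in all).

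Other genes of the same processes were read from further lists. Of 28 tested genes of a further mitosis list, 0 rose and 11 fell at 10 min, 1 rose and 0 fell at 5 h, 1 rose and 17 fell at 15 h, and 1 rose and 8 fell at 24 h, with medians of -0.44, -0.51 and -0.40 at 10 min, 15 h and 24 h. Over all named genes 9.65%, 20.5% and 14.9% fell and 12%, 19.8% and 15.5% rose at these 3 times, and 1.67% rose at 5 h. Kif23 and Kif2c, mitotic kinesins, fell by 0.81 and 0.73 at 10 min, and Tpx2, which activates Aurka at the spindle, by 0.77 (adjusted p = 0.015 to 0.0155). Cdca5, or sororin, which holds sister chromatids together, fell by 1.11 at 15 h (adjusted p = 0.000421) and by 0.88 in the slide-blocked fit (adjusted p = 0.0192). Aspm, a spindle pole protein, was detected on 0 arrays at 24 h, a signal at least 1.22-fold lower with an adjusted p of 0.00682. The genes of this list that rose were Tuba1c, an alpha-tubulin that nondividing cells use too, by 1.17 at 15 h and 0.71 at 24 h (adjusted p = 8.46e-05 and 0.00822), and Stmn1, a microtubule destabiliser abundant in neurons, by 0.80 at 5 h (adjusted p = 0.0261). In the slide-blocked fit Kif2c and, at 15 h, Tuba1c passed (adjusted p = 0.0396 and 0.00294), and Kif23, Tpx2, Aspm, Stmn1 and Tuba1c at 24 h did not (adjusted p = 0.0887 to 0.339). At 5 h, the time of the Stmn1 rise, 0 of all 10447 tested probes passed in that fit.

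Of 29 tested genes of a further replication list, 3 rose and 2 fell at 10 min, 3 rose and 6 fell at 15 h, and 3 rose and 0 fell at 24 h, against 12% and 9.65%, 19.8% and 20.5%, and 15.5% and 14.9% of all named genes. The counts at 10 min and that of falls at 15 h are near those shares. Orc3, of the origin recognition complex, rose by 0.63 at 10 min and 0.61 at 24 h (adjusted p = 0.00465 and 0.0027), and Rpa3 and Rpa1, subunits of the single-strand binding protein, rose by 0.42 and 0.33 at 24 h (adjusted p = 0.00181 and 0.011). Dbf4, the activator of the origin-firing kinase Cdc7, fell by 0.70 at 15 h (adjusted p = 0.00409), Chaf1a, a histone chaperone of the fork, by 0.62 and Fen1, the flap nuclease, by 0.44 (adjusted p = 0.00221 and 0.00763). Dnmt1, the maintenance methyltransferase, rose by 0.50 at 5 h (adjusted p = 0.0158). Control replicate 2 stood apart for Dbf4 (6.8, against 7.71 to 7.97 on the other controls) and Orc3 (6.7, against 6.02 to 6.27). Blocking by slide kept the calls of Rpa3, Rpa1, Fen1 and, at 10 min, Orc3 (adjusted p = 0.0365 to 0.0486), and not those of Dbf4, Chaf1a, Dnmt1 and, at 24 h, Orc3 (adjusted p = 0.0717 to 0.148). At 5 h, the time of the Dnmt1 rise, the blocked fit called 0 of all 10447 tested probes.

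Histone genes that are transcribed with DNA synthesis in S phase were low at 5 h. Of 31 tested genes 15 fell and 0 rose at 5 h (median -0.56), when no gene of the 30 fell and 1.17% of all named genes did. At 8 h against 5 h 15 rose and 0 fell (median 0.72), where 1.4% of all named genes rose. H2bc7, H2bc9, H2bc11 and H2bc15 fell by 1.63, 1.59, 1.52 and 1.39 at 5 h (adjusted p = 0.00269 to 0.0038). In the slide-blocked fit they differed by -1.49, -1.34, -1.45 and -1.29, and none of these passed (adjusted p = 0.0613 to 0.136). In that fit 0 of all 10447 tested probes passed at 5 h. Among the 31 histone genes 3 rose and 0 fell at 10 min, 1 and 6 at 15 h and 1 and 4 at 24 h (medians -0.25, -0.13 and -0.34). Over all named genes 12%, 19.8% and 15.5% rose and 9.65%, 20.5% and 14.9% fell. H2bc6 rose by 1.01 at 10 min (adjusted p = 0.00442, 0.0735 in the slide-blocked fit) and by 1.1 at 24 h (adjusted p = 0.00104, 0.0404 in the slide-blocked fit). It read 6.38 on control replicate 2, within its 10 min values of 6.37 to 6.54, and 4.88 to 5.51 on the other controls. The histone genes are near-identical copies, so a probe may read several of them.

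Of 28 tested genes of cell cycle control, 1 rose and 5 fell at 10 min, 0 and 2 at 5 h, 7 and 4 at 15 h, and 2 and 4 at 24 h. Of all named genes 12% and 9.65%, 1.67% and 1.17%, 19.8% and 20.5%, and 15.5% and 14.9% did so. Cdkn1a, or p21, an inhibitor induced by p53, fell by 0.78 at 10 min, 0.68 at 5 h and 0.64 at 24 h (adjusted p = 0.00613, 0.0489 and 0.0116), and none of these passed in the slide-blocked fit (adjusted p = 0.0652, 0.238 and 0.127). That fit called 0 of all 10447 tested probes at 5 h. At 15 h the Cdk4 inhibitor Cdkn2b rose by 0.78 and Ccng1, a p53 target, by 0.87, and Cdkn2d, another Cdk4 inhibitor, fell by 0.58 (adjusted p = 6.37e-06, 0.000224 and 0.000129), each also in the slide-blocked fit (adjusted p = 0.00023, 0.00736 and 0.000501). Fbxw7, which marks cyclin E for destruction, fell by 0.40, 0.60 and 0.52 at 10 min, 15 h and 24 h (adjusted p = 0.0174, 0.000327 and 0.00184), Gadd45a, a stress-induced gene, fell by 0.59 at 10 min and rose by 0.42 at 15 h (adjusted p = 0.0017 and 0.00539), and Rb1, the retinoblastoma gene that restrains E2F, rose by 0.46 at 24 h (adjusted p = 0.00265). At 24 h against 15 h Gadd45a fell by 0.58 (adjusted p = 0.0258). Blocked by slide, Gadd45a at 10 min and 15 h, Rb1 and, at 15 h, Fbxw7 passed (adjusted p = 0.0422, 0.0156, 0.049 and 0.0127), and Fbxw7 at 10 min and 24 h did not (adjusted p = 0.152 and 0.0545).

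Markers of cell types also passed the test at 10 min, 15 h and 24 h, where 12%, 19.8% and 15.5% of all named genes rose and 9.65%, 20.5% and 14.9% fell. Of 7 tested astrocyte markers, 4 rose at 10 min, 0 at 5 h and at 8 h, 7 at 15 h and 6 at 24 h, and 0 fell. Their summed signal was 23200 to 25600 at 10 min, 29200 to 33600 at 15 h and 27400 to 29800 at 24 h, against 16000 to 23000 on the controls, of which control replicate 2 was the highest. Of 8 progenitor markers 1 rose and 0 fell at 10 min, 5 rose and 1 fell at 15 h and 3 rose and 1 fell at 24 h, and their summed signal at 15 h was 10900 to 11900, against 5370 to 7600 on the controls. Of 11 neuron markers 3, 10 and 5 fell at these times, with a summed signal of 18200 to 19700, 13400 to 14800 and 16200 to 18400, against 18900 to 22500 on the controls. Of 4 oligodendrocyte lineage markers 1, 2 and 1 fell and 0 rose, with Mbp, a myelin gene, lower by 0.93 at 15 h (adjusted p = 1.82e-06). Of 10 fibroblast and vascular markers 3 were tested, and all passed at each of these times. Acta2, smooth muscle actin, rose by 1.79, 1.43 and 2.02 and Pdgfrb, a pericyte receptor, by 0.60, 0.94 and 0.77, whereas Dcn, a matrix proteoglycan of fibroblasts, fell, with differences of -1.51, -1.74 and -2.19 (adjusted p = 3.55e-06 to 0.0196). The progenitor markers Pax6 and Sox1 were not detected, and of the 3 microglia markers tested 1, 2 and 2 rose, with Aif1 and Itgam not detected. The 3 tested, C1qa, C1qb and Trem2, were detected on 4, 6 and 4 of 20 arrays, so their calls lie near the detection limit. The part of these cell types in the results was not tested.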

How the data were processed

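RNA of 20 samples of cortical cultures was measured on single-colour Illumina mouse bead arrays. Per the file headers, the deposited intensity values are average probe signals without normalization, each with a detection score (1 minus the detection p). The authors also deposited a normalized ratio for each probe, which was recomputed from their signals as signal over the array's median, divided by the median of the controls, on 24396 of 24396 rows (tolerance 1%), and which served as an alternative on the log2 scale. In these 2 tables all 5 control columns hold another control array than the one they are named for, so controls were taken from the profile. Another 120 columns of per-sample values were not used.

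Signals were corrected for background and brought to common quantiles by limma 3.58.1 (neqc, offset 16; R 4.3.3), without 7 bacterial control probes. Profile identifiers were paired with platform identifiers through identical rows, and 20614 of 24620 probes were named (4006 were not), with symbols updated through Entrez identifiers. Following the row link of the deposited tables instead would give other names: of 24601 rows linked by their signals, 2 carry the same identifier, so every gene name rests on the profile's own identifiers. Means of 6 groups were fitted by limma to 10447 probes detected on at least 3 arrays, and 8 comparisons were tested, two-sided, with Benjamini-Hochberg adjustment over all tested probes. The test was checked on simulated data that held no slide difference and no outlying control, so the check does not bear on either. A group detected on 0 arrays gives a bound: the brighter group's mean against the higher of the lowest detected signal and the dim probe's own signal, per array.

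The genes and lists were chosen with earlier results of these data known. Array values are given for the 12 genes with the smallest adjusted p against controls among those that passed; of other lists the text draws on the 4 genes with the smallest adjusted p in each comparison. Histone symbols were updated after the annotation was seen. Alternatives were other normalizations, no detection filter, slide or replicate number as a block, fits of the compared groups alone and leaving out arrays.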

Additional observations from a re-analysis of the deposited data

Results flagged for a closer look

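Control replicate 2 lay far below the other 4 controls for 9 of the tested genes. Its log2 signal was 6.33 for Mcm2, 9.06 for Mcm4 and 7.76 for Mcm5, where the next lowest control read 6.68, 9.48 and 8.54. For Top2a it was 5.11, for Cdk1 5.99 and for Plk1 6.92, where the next lowest control read 6.41, 7.11 and 8.01. For Mad2l1 it was 4.94, for Cdc20 6.62 and for Birc5 6.53, where the next lowest control read 6.33, 7.75 and 7.63. Chance alone marks about 1 in 20 such groups, and the genes share that array.

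The difference of 15 h from 8 h was itself tested with limma and passed for 14 genes. Among replication genes it was -0.41 for Mcm4, -0.82 for Mcm5, -0.53 for Cdt1, -0.51 for Rrm2 and -0.73 for Tk1 (log2). In G1 and S phase control it was 0.36 for Cdk4 and -0.62 for E2f1. For genes of mitosis it was -0.89 for Cdc25c, -1.02 for Plk1, -1.08 for Aurka, -1.25 for Bub1b, -0.94 for Cdc20, -0.95 for Birc5 and -0.86 for Cenpa. Tk1, Cdc25c and Bub1b were detected on 0 arrays at 15 h, so their fitted differences are no measured folds. These times lie on different slides. Mcm5 also differed between 24 h and 15 h, on the same slide, by 0.80.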

How the results depend on the processing

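The counts of tested genes past the test depended on the treatment of control replicate 2, the slides and the spread that the groups share. At 10 min (7 genes) no detection filter left 2, the replicate block 1 and a fit of the compared groups alone 1. Over all tested probes 1153 rose and 981 fell in the main fit. In these fits, in order, 944 and 708, 336 and 221, and 356 and 226 did so. At 5 h (1 gene) the authors' values gave 5, and the slide as a fixed block, as a random block, the replicate block, the compared groups alone and leaving out 5 h replicate 1 and 8 h replicate 3 each gave 0. All tested probes gave 176 rises and 120 falls in the main fit and 896 and 46 with the authors' values. The other settings gave, in order, 0 and 0, 49 and 35, 202 and 133, 0 and 0, and 131 and 114. At 15 h (13 genes) the fixed slide block left 2. There 1463 of all tested probes rose and 1467 fell (1951 and 2078 in the main fit). At 24 h (9 genes) the fixed slide block left 3, the replicate block 4 and the compared groups alone 4. Probes that rose and fell numbered 1534 and 1506 in the main fit. In these settings, in order, they numbered 802 and 644, 993 and 893, and 1081 and 907. For 8 h against 5 h (0 genes) the authors' values gave 3. With those values 63 of all tested probes rose and 717 fell (129 and 112 in the main fit). For 15 h against 8 h (14 genes) the fixed slide block left 1 and the random one 7. Among all tested probes 1674 rose and 1761 fell in the main fit. The fixed block gave 337 and 363 and the random one 1056 and 1041. For 24 h against 15 h (1 gene) quantile normalization without background correction gave 2, the authors' values 0, no detection filter 0, the fixed slide block 3, the random one 2, the replicate block 0 and the compared groups alone 10. The main fit called 45 probes higher and 64 lower. In order, these settings gave 66 and 79, 18 and 39, 37 and 53, and 103 and 113. The last ones gave 77 and 85, 37 and 63, and 466 and 451. With settings chosen after seeing the data, the slide block leaving out control replicate 2 gave 11 at 10 min, 0 at 5 h, 2 for 8 h against 5 h and 6 for 24 h against 15 h. Probes higher and lower in that fit were, in order, 902 and 967, 16 and 16, 538 and 476, and 233 and 239. Leaving out control replicate 2, 5 h replicate 1 and 8 h replicate 3 together gave 16 at 10 min, 17 at 24 h, 2 for 8 h against 5 h and 6 for 24 h against 15 h. Probes higher and lower without these arrays were, in order, 2056 and 1976, 2188 and 2342, 308 and 319, and 294 and 282. Leaving out 1 array at a time gave 2 to 13 at 10 min, 0 to 2 at 5 h, 0 at 8 h, 10 to 19 at 15 h, 4 to 15 at 24 h, 0 for 8 h against 5 h, 10 to 13 for 15 h against 8 h and 0 for 24 h against 15 h. The highest counts at 10 min, 15 h and 24 h are those without control replicate 2. The cause of these shifts was not tested. Of 859 values for single cell cycle genes under all alternatives, 644 kept their direction and call, 215 kept the direction without passing and 0 reversed. Samples that share a replicate number did not pair: over 45 pairs the correlation of deviations ran between -0.59 and 0.45, with 10 over 0.1, so the block stands for a shared number only. Genes near background, such as Cdc25c, Bub1b and Tk1, carry bounds and not measured folds.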
